A study of Saccharomyces cerevisiae with 31 samples.

Results

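The genes described here encode 50 proteins of the small subunit processome and of later 40S ribosome assembly in Saccharomyces cerevisiae. They were chosen by name: a probe set was taken when its gene symbol in the array annotation was on a list of 50 assembly factors. All 50 were found among the 5449 S. cerevisiae genes on the array, 49 by the annotated symbol and DBP4 through its synonym HCA4, and each had a single probe set. All 50 lay above the low-intensity floor, a median intensity of 17.04 set by annotated probe sets that matched no S. cerevisiae gene, and their own median deposited intensities ran from 339.3 to 2672.7.

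The small subunit processome is a very large complex that forms in the nucleolus on the precursor rRNA while RNA polymerase I is still making it. Its subcomplexes fold the leading part of the precursor, hold the U3 small nucleolar RNA on it, and bring the enzymes that modify and cleave it, after which a smaller set of factors accompanies the new subunit to the cytoplasm. In yeast these genes form a well-known regulon with the other ribosome biogenesis genes, are switched on together by nutrients and growth signals, and are known for a sharp peak in each cycle of oscillating cultures.

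All 31 arrays measured total RNA of the strain CEN.PK122 in aerobic continuous culture, untreated and with no second genotype or control group. The culture swung by itself between respiratory and reductive metabolism, as the dissolved oxygen showed, with a period of 2 h. One array was made every 4 min from 12.53 to 14.53 h, and each carries a labelled phase angle from 5.93 to 362.01 degrees. Which angles belong to respiration is not stated in the labels, so phases are given as angles alone. There is 1 array per angle from what is treated as 1 culture and 1 cycle. The p-values of fitted curves measure the spread of these arrays around the curve. Those of steps between windows of angle measure the spread of arrays within windows, which includes any trend inside a window. Neither kind says anything of recurrence in another cycle.

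Array medians ran from 1055.9 to 2142.3 in deposited intensity, and values below are quantile-normalized intensities, so a change is relative to the other transcripts of the same array. In RNA from a whole culture, less RNA per cell and fewer expressing cells cannot be told apart. The arrays fall into a batch of 16 and a batch of 15 by the numbers in their descriptions, whose meaning is not stated. The poly-A spikes minus the hybridization spikes lay between -4.19 and -3.57 on the log2 scale in the batch of 16 and between -5.18 and -4.57 in the batch of 15. Levels are not compared between different genes, because probe sets differ in brightness for the same amount of RNA.

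The first question was how the members moved over the cycle. As a group they were high in the first 5 arrays and dropped to near their lowest level by 89.01 degrees. Their mean fell a little further until 124.62 degrees and then climbed for the rest of the cycle. The mean log2 intensity of the 50 members was 11.97 ± 0.25 at 5.93 to 41.54 degrees (SD, n = 4 arrays), 10.68 ± 0.97 at 53.41 to 77.14 degrees (n = 3), 8.87 ± 0.18 at 89.01 to 112.75 degrees (n = 3) and 8.89 ± 0.19 at 124.62 to 172.09 degrees (n = 5). It was 9.50 ± 0.17 at 183.96 to 231.43, 9.97 ± 0.14 at 243.3 to 290.77 and 10.63 ± 0.35 at 302.64 to 350.11 degrees (n = 5 each). The highest array was that at 29.67 degrees (12.19) and the lowest that at 124.62 degrees (8.68), and both belong to the batch of 15.

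The way down was steeper than the way up. On the arrays at 53.41, 65.28, 77.14 and 89.01 degrees the mean stood at 11.64, 10.71, 9.70 and 9.06. From 124.62 to 362.01 degrees it was higher than on the array before in 20 of 20 steps, and single members were higher in 14 to 20 of them, with a median of 17. The largest fall between neighbouring arrays ran from -1.6 to -0.69 on the log2 scale over the members (median -1.1), and the largest rise from 0.34 to 1.09 (median 0.48). The rise of 1.09 was that of UTP4 after 1 low array, with values of 8.57, 7.83 and 8.92 at 112.75, 124.62 and 136.48 degrees. The largest fall lay between 53.41 and 65.28 degrees for 23 members, between 65.28 and 77.14 degrees for 24, and between 77.14 and 89.01 degrees for 3, which were KRE33, UTP10 and RRP5. The largest rise was spread wider, with 23 members between 350.11 and 362.01 degrees, 8 between 338.24 and 350.11 degrees and the other 19 elsewhere.

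**Figure D1:**
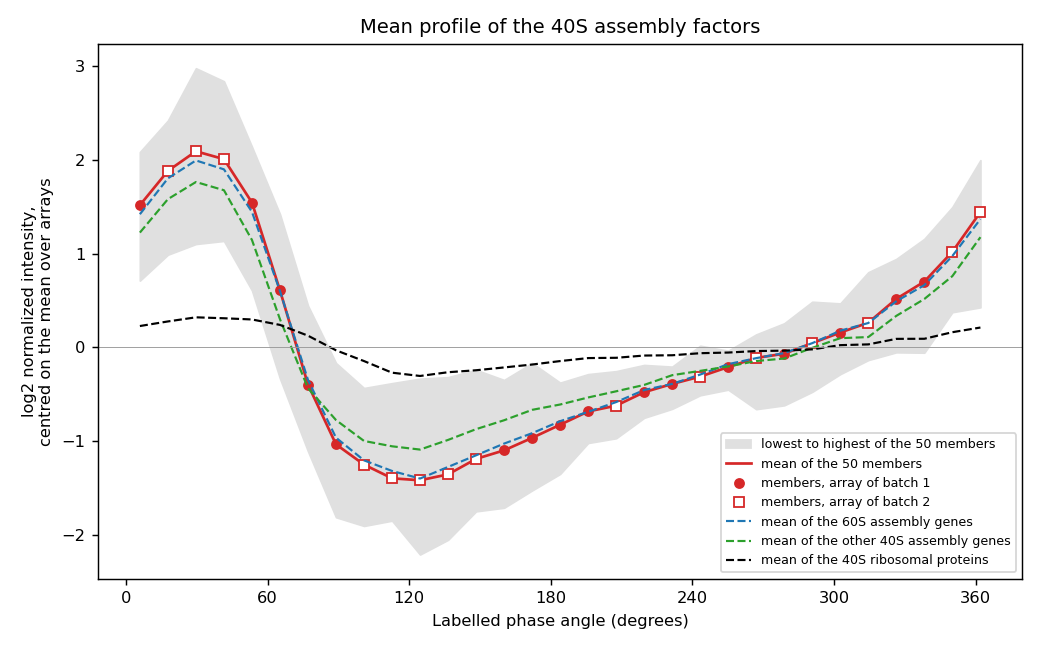
Mean log2 normalized intensity, centred on each mean over 31 arrays, against the labelled phase angle in degrees. The red line is the mean of the 50 members with filled circles for arrays of batch 1 and open squares for arrays of batch 2, the grey band spans the lowest to the highest member, and dashed lines are the means of the 60S assembly genes, the other 40S assembly genes and the 40S ribosomal protein genes; the members' mean is highest at 29.67 degrees and lowest at 124.62 degrees.

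Individual members kept close to this course. The highest array was at 29.67 degrees for 36 members, at 41.54 degrees for 12, at 17.8 degrees for PWP2 and at 53.41 degrees for UTP20. The lowest was at 112.75 degrees for 18, at 124.62 degrees for 15, at 136.48 degrees for 11, at 100.88 degrees for 5 and at 89.01 degrees for RRP9. Pearson's r between a member and the mean of the other 49, a description over 31 arrays that share normalization and batch, ran from 0.917 for RRP7 to 0.998, with a median of 0.990.

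**Figure D2:**
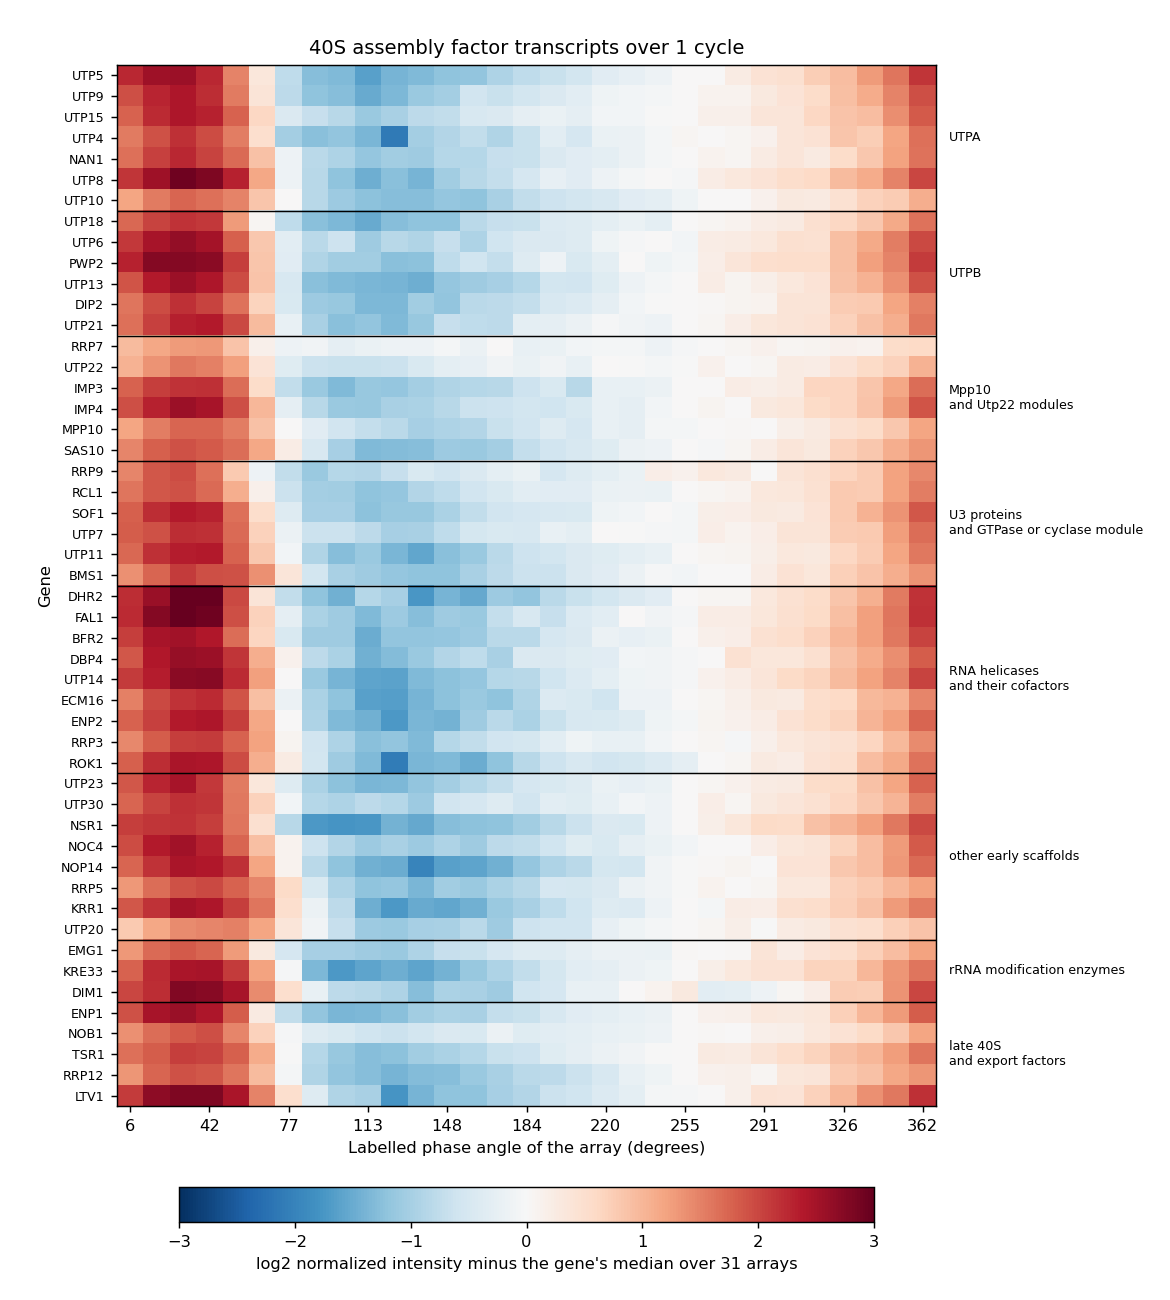
Log2 normalized intensity of each of the 50 members minus its own median over 31 arrays, with arrays in order of labelled phase angle in degrees and genes grouped by role. Red marks arrays above a gene's median and blue arrays below it; every row is red in the first 5 arrays and blue or near white from 89.01 to 231.43 degrees, and RRP7 and UTP22 are the palest rows.

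A curve of 1 cosine per cycle was fitted to each of 5422 probe sets with limma, and the difference between its top and bottom is called the fitted range. All 50 members passed the test for variation with phase at an adjusted p under 0.05, in an array where 89.1% of all probe sets tested did. A range of 2-fold or more was reached by 49 members, against 23.1% of all probe sets, and all 49 had their fitted peak between 300 and 60 degrees, against 11.6%. A range of 4-fold or more was reached by 43 members, against 6.47%. The median range of the members was 2.54 on the log2 scale, with extremes of 0.94 and 3.35, while the median over all probe sets tested was 0.54. Within the batches of 16 and 15 arrays, which sampled different angles, the median range was 1.97 and 3.32.

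Fitted peaks were close together, from 344.8 to 13.2 degrees with a median of 355.6 degrees. The fitted peak marks the centre of a lopsided high stretch and not its highest array, and variation faster than 1 cosine per cycle passed in 50 of 50 members and in 86.1% of all probe sets. NSR1, the yeast counterpart of nucleolin, had the earliest fitted peak at 344.8 ± 5.7 degrees (SE), followed by RRP9 at 346.7 ± 8.2 and UTP4 at 346.9 ± 7.9 degrees. RRP7 had the latest at 13.2 ± 10.0 degrees, after DIM1 at 8.7 ± 7.5 and NOB1 at 6.2 ± 7.6 degrees. These SEs take the arrays as independent, although residuals of neighbouring arrays were correlated (0.645), and may therefore be too small.

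**Figure D3:**
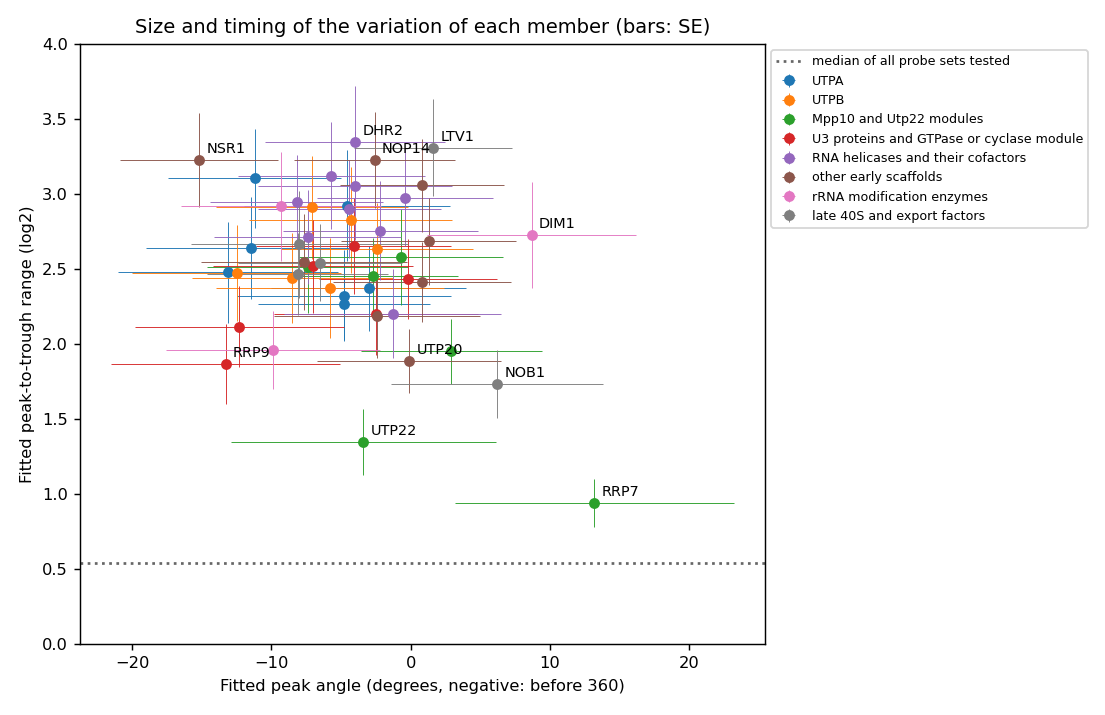
Fitted range (top minus bottom of the curve, log2 scale) against fitted peak angle in degrees (negative angles lie before 360) for the 50 members, coloured by role, with bars of 1 SE and a dotted line at the median range of all probe sets tested, 0.54. Most members lie between 2 and 3.35, RRP7 at 0.94 and UTP22 at 1.35 lie lowest, and NSR1 and RRP7 are the ends of the peak angles.

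The UTPA subcomplex is the first to bind the precursor and, in yeast, has also been linked to transcription of the rRNA genes. Its 7 members UTP4, UTP5, UTP8, UTP9, UTP10, UTP15 and NAN1 all passed with ranges of 4-fold or more and a median of 2.48. UTP5 (YDR398W) varied most: its normalized intensity was 382 at the lowest, 1188 at the median and 7023 at the highest array, a fitted range of 3.10 ± 0.33 on the log2 scale (SE, n = 31 arrays; adjusted p = 1.37e-08, limma). UTP10 (YJL109C), a very long protein of helical repeats, varied least, with intensities of 691, 1680 and 5650 and a range of 2.27 ± 0.24 (adjusted p = 1.31e-08, limma). UTP4 (YDR324C), a protein of WD repeats, had intensities of 227, 985 and 4518 and a range of 2.48 ± 0.34 (adjusted p = 5.4e-07, limma).

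The UTPB subcomplex is built mainly of WD-repeat proteins and joins next, touching both U3 and the leading part of the precursor. Its 6 members PWP2, DIP2, UTP6, UTP13, UTP18 and UTP21 had ranges from 2.38 to 2.91, with a median of 2.55. UTP13 (YLR222C) had the largest, 2.91 ± 0.35, with normalized intensities of 336, 927 and 5471 at the lowest, median and highest array (adjusted p = 6.82e-08, limma). UTP21 (YLR409C) had the smallest, 2.38 ± 0.33, with intensities of 373, 933 and 4871 (adjusted p = 9.66e-07, limma). The 13 members of UTPA and UTPB served below as a yardstick, because they form the scaffold that the other factors join.

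The Mpp10 and Utp22 modules held the members that varied least. The Mpp10 module, MPP10 with IMP3, IMP4 and SAS10, steadies the pairing of U3 with the precursor. IMP4 (YNL075W) had the largest range of these, 2.58 ± 0.32, with intensities of 315, 693 and 4097 (adjusted p = 1.51e-07, limma). RRP7 and UTP22 encode partners in a module that also contains casein kinase and, in a related complex, a regulator of ribosomal protein genes. The normalized intensity of RRP7 (YCL031C) was 939 at the lowest, 1126 at the median and 2791 at the highest array, so that most of the cycle lay close to its lowest value. Its fitted range was 0.94 ± 0.16, a 1.92-fold difference and the only one of the 50 under 2-fold (adjusted p = 1.94e-05, limma). UTP22 (YGR090W) had intensities of 1051, 1673 and 5028 and a range of 1.35 ± 0.22 (adjusted p = 9.96e-06, limma).

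Both genes of this pair were highest at 41.54 and 29.67 degrees like the other members, and their values after the fall lay closer to that height. RRP7 averaged 11.31 ± 0.16 on the log2 scale at 5.93 to 41.54 degrees (SD, n = 4 arrays), 10.03 ± 0.08 at 124.62 to 172.09 degrees (n = 5) and 10.32 ± 0.20 at 302.64 to 350.11 degrees (n = 5). UTP22 averaged 12.09 ± 0.24, 10.36 ± 0.21 and 11.14 ± 0.21 in the same windows. Within the batches of 16 and 15 arrays the fitted range was 0.60 and 1.33 for RRP7 and 0.90 and 1.87 for UTP22.

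Among the U3-associated proteins and the GTPase and cyclase pair, RRP9, SOF1, UTP7, UTP11, BMS1 and RCL1 had a median range of 2.32, and 5 of 6 reached 4-fold. RRP9 (YPR137W), the protein that binds the U3 RNA itself, varied least, by 1.87 ± 0.26, with intensities of 473, 1027 and 3966 (adjusted p = 1.1e-06, limma). UTP11 (YKL099C) varied most, by 2.65 ± 0.32, with intensities of 180.6, 531 and 2751 (adjusted p = 8.78e-08, limma). BMS1 encodes a GTPase and RCL1 a protein with the fold of RNA cyclases, and their ranges were 2.43 ± 0.27 and 2.11 ± 0.27.

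The RNA helicases and their cofactors had the largest median range of any role, 2.95, and 9 of 9 reached 4-fold. These are the DEAD-box proteins RRP3, ROK1, DBP4 and FAL1, the DEAH-box proteins DHR2 and ECM16, UTP14, which activates ECM16, and BFR2 and ENP2. DHR2 (YKL078W) had the largest range of the 50 members: its intensity was 120 at the lowest, 405 at the median and 3599 at the highest array, a fitted range of 3.35 ± 0.38 or 10.2-fold (adjusted p = 2.76e-08, limma). UTP14 (YML093W) had intensities of 274, 832 and 5497 and a range of 3.12 ± 0.36 (adjusted p = 3.86e-08, limma). RRP3 (YHR065C) had the smallest of this role, 2.20 ± 0.30, with intensities of 418, 1045 and 4456 (adjusted p = 4.71e-07, limma).

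The other early scaffold proteins, UTP20, RRP5, UTP23, UTP30, KRR1, NSR1, NOC4 and NOP14, had a median range of 2.62, and 7 of 8 reached 4-fold. NOP14 (YDL148C), which works in a pair with NOC4, had intensities of 184.7, 729 and 3992 and a range of 3.23 ± 0.32 (adjusted p = 3.59e-09, limma). NSR1 (YGR159C) had intensities of 729, 2500 and 11289 and a range of 3.23 ± 0.31 (adjusted p = 2.76e-09, limma). UTP20 (YBL004W), another very long protein of helical repeats, varied least, by 1.89 ± 0.21, with intensities of 1058, 2294 and 6521 (adjusted p = 3.13e-08, limma).

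Of the 3 enzymes that modify the small subunit rRNA, KRE33 (YNL132W), an acetyltransferase, had the largest range, 2.92 ± 0.36, with intensities of 390, 1292 and 7110 (adjusted p = 1.39e-07, limma). DIM1 (YPL266W), a dimethyltransferase that acts on adenosines, had intensities of 330, 805 and 5538 and a range of 2.73 ± 0.35 (adjusted p = 2.57e-07, limma). EMG1 (YLR186W), which methylates a pseudouridine, had the smallest, 1.96 ± 0.26, with intensities of 921, 1976 and 7110 (adjusted p = 3.5e-07, limma).

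The factors that stay on the subunit until late or take it out of the nucleus, ENP1, RRP12, LTV1, TSR1 and NOB1, ranged from 1.73 to 3.31 with a median of 2.54. LTV1 (YKL143W), which is released from the subunit late, in the cytoplasm, had the second largest range of all, 3.31 ± 0.32, with intensities of 170, 577 and 4054 (adjusted p = 3.17e-09, limma). NOB1 (YOR056C), the nuclease that makes the final cut of the small subunit rRNA, had the smallest of this role, 1.73 ± 0.22, with intensities of 889, 1380 and 5277 (adjusted p = 2.59e-07, limma). In all 5 the highest array was at 29.67 or 41.54 degrees.

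The second question was in which part of the cycle the members rose or fell, tested with limma between windows of labelled angle over 30 arrays. The spread used in these tests includes the course inside each window, such as the fall of the members' mean from 11.64 at 53.41 to 9.70 at 77.14 degrees. In the step to 53.41 to 77.14 degrees from 5.93 to 41.54 degrees, 48 of 50 members fell, by a median of 1.30 on the log2 scale over the 50. Over all probe sets tested 26.3% fell and 31.4% rose in this step, with a median of 0.03. UTP20 at -0.18 (adjusted p = 0.481, limma) and RRP5 at -0.44 (adjusted p = 0.0864, limma) did not pass. In the step to 89.01 to 112.75 degrees all 50 members fell, by a median of 1.83, while 30.1% of all probe sets fell and 34.5% rose. KRE33 had the largest of these falls, at -2.65, and RRP7 the smallest, at -0.47.

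No member passed in the step to 124.62 to 172.09 degrees from 89.01 to 112.75 degrees, where 7.14% of all probe sets rose and 10.4% fell in limma's test. At an unadjusted p under 0.05, 1 member stood above 0, RRP9 at 0.46, and 1 below, KRR1 at -0.67, against 13.7% and 16.7% of all probe sets. The median was 0.09 over the members and 0.01 over all probe sets, and on the deposited scale, where array medians differ, -0.24 and -0.33. With scaling by hybridization spikes it was -0.01 and -0.11. In the step to 183.96 to 231.43 degrees 22 members rose, with a median difference of 0.64 over the 50, against 10.3% of all probe sets that rose and 9.77% that fell. This count depended on the scaling and on few arrays: it was 46 on the deposited scale, 37 with arrays centred on their medians and 49 with scaling by hybridization spikes. On the deposited scale the median was 1.00 over the members and 0.24 over all probe sets. The count was 13 with batch as a term and 6 without the members' highest and lowest array. The 5 dimmest arrays are those at 41.54, 124.62, 136.48, 148.35 and 172.09 degrees. Without them the window at 124.62 to 172.09 degrees keeps 1 array, at 160.22 degrees, so no count is given for this step. Shares over all probe sets were computed only for the setting as reported, in this step and the later ones.

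In the step to 243.3 to 290.77 degrees no member passed limma's adjusted test, with a median difference of 0.48, while 0.535% of all probe sets rose and 0.406% fell. At an unadjusted p under 0.05, 25 members stood above 0 and 0 below, against 9.52% and 9.54% of all probe sets. In the step to 302.64 to 350.11 degrees 17 members rose, with a median of 0.66 over the 50, against 4.87% of all probe sets that rose and 4.85% that fell. That count was 5 with batch as a term, and 0 on the deposited scale, with median centring, with scaling by hybridization spikes and without the 5 dimmest arrays. The members' median difference was 0.76 on the deposited scale, 0.60 with median centring and 0.62 with spikes. At an unadjusted p under 0.05, 49 members stood above 0 and 0 below in this step, against 15.5% and 16.5% of all probe sets.

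Between distant windows the calls were complete. At 124.62 to 172.09 degrees all 50 members were lower than at 5.93 to 41.54 degrees, by a median of 3.10, against 39.2% of all probe sets that were lower and 45.5% that were higher. DHR2 averaged 7.30 ± 0.31 in the later window (SD, n = 5 arrays) and 11.41 ± 0.42 in the earlier one (n = 4), a difference of -4.10 ± 0.33 (SE, adjusted p = 2.32e-11, limma). RRP7 averaged 10.03 ± 0.08 in the later window and 11.31 ± 0.16 in the earlier one, a difference of -1.28 ± 0.13 (SE, adjusted p = 7.76e-10, limma). At 302.64 to 350.11 degrees all 50 were still lower than at 5.93 to 41.54 degrees, by a median of 1.36, against 37.3% of all probe sets that were lower and 36.2% that were higher.

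**Figure D4:**
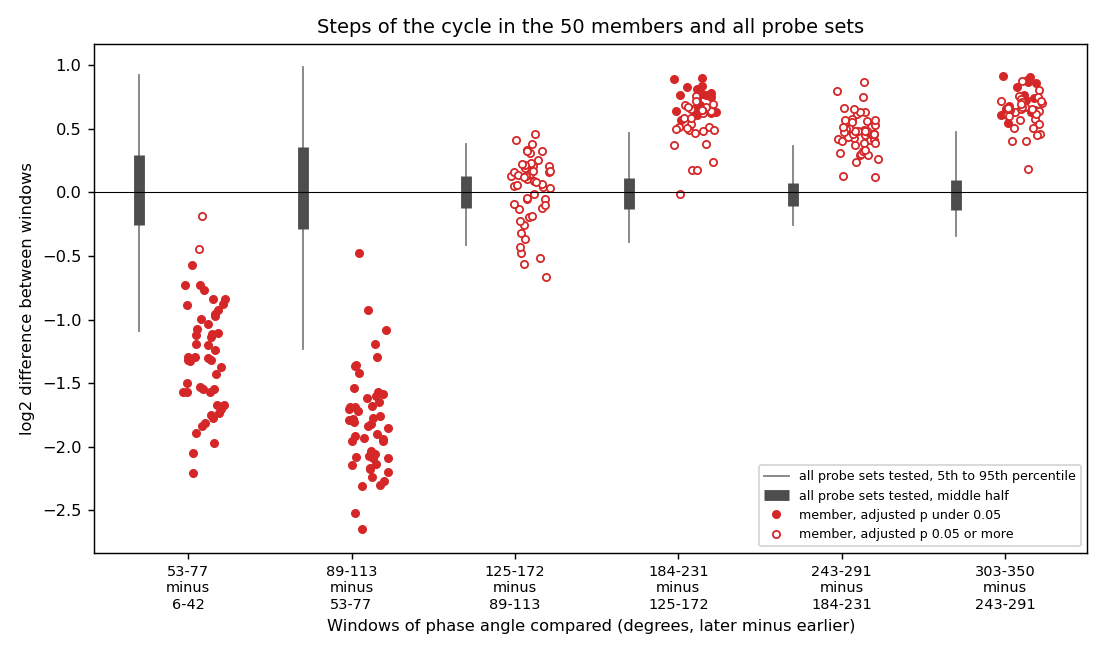
Difference in log2 normalized intensity between successive windows of phase angle in degrees, later minus earlier, for the 50 members as points (filled where the adjusted p is under 0.05) beside bars for the middle and the 5th to 95th percentiles of all probe sets tested. All 50 members lie below 0 in the first and second steps, they straddle 0 in the third step, and 49, 50 and 50 of them lie above 0 in the last steps.

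The members' mean came back close to its first value. The last array, at 362.01 degrees, had a mean of 11.54 over the members, against 11.62 on the first array at 5.93 degrees and 11.12 on the array before it at 350.11 degrees. Of the 50 members 43 were lower on the last array than on the first, with differences from -0.35 to 0.10 and a median of -0.07, and all 50 were higher than at 350.11 degrees. These are single arrays with no test.

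The third question was whether members of other roles followed the same course as UTPA and UTPB. The array mean of those 13 genes, which contains the 13 themselves, was subtracted and the difference was tested for variation with phase. It varied in 25 of 50 members and in 98.2% of all probe sets tested. Among the 37 members outside UTPA and UTPB 22 differed, 11 with a smaller range and 11 with a larger one. In a fit that allowed for correlation between neighbouring arrays, 3 of the 50 differed, which were RRP7 (adjusted p = 0.00455, limma), UTP22 (adjusted p = 0.0031, limma) and NOB1 (adjusted p = 0.0388, limma). All 3 varied less than UTPA and UTPB. Within the batches of 16 and 15 arrays the count was 11 and 10. No share over all probe sets was computed for these other settings, here or in the comparison below. A general loss of calls therefore cannot be told apart from one particular to the members.

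The same was done with the mean of the 67 genes of 60S assembly, which vary with phase by a median range of 2.46. Members differed from it in 29 of 50 cases, 21 with a larger and 8 with a smaller range, while 98.3% of all probe sets differed. The test, here and against UTPA and UTPB, responds to timing as well as to size. It therefore does not show that the range is what differs in each of these members. With serially correlated arrays 3 differed, which were UTP22 (adjusted p = 0.00387, limma), RRP7 (adjusted p = 0.00396, limma) and NSR1 (adjusted p = 0.0425, limma), and within the batches the count was 15 and 19. Against the mean of the 40S ribosomal protein genes, whose products are the proteins that these factors place on the rRNA, all 50 members differed, as did 92.2% of all probe sets. Those ribosomal protein genes varied far less in normalized intensity: 47 of 53 measured passed, 2 of these by 2-fold or more, and their median range was 0.37. Over all probe sets tested 89.1% passed and 23.1% passed with 2-fold or more. Their probe sets were also brighter, with a median log2 level of 13.42 against 10.1 for the members. An effect of this brightness on the range was not tested.

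The size of the first step of the fall was then set against UTPA and UTPB. In a comparison added after the values were seen, the first step of the fall (53.41 to 77.14 minus 5.93 to 41.54 degrees) was compared gene by gene with that of the UTPA and UTPB mean, which was -1.52. The step was higher, that is, the drop was smaller, in 22 of 50 members and lower in 5, while 94.2% of all probe sets were higher and 0.756% lower. A step on the log2 scale depends on the size of a gene's range as well as on its timing: RRP7, with the smallest range, stood above by 0.63 ± 0.20. Serially correlated arrays left the counts over the 50 members at 22 and 5.

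UTP20 stood farthest above. Relative to its own highest array its log2 intensity was 0 at 53.41, -0.32 at 65.28, -1.14 at 77.14 and -1.61 at 89.01 degrees, when the UTPA and UTPB mean was already at -0.66, -1.72, -2.85 and -3.42. Its first step differed from that of UTPA and UTPB by 1.34 ± 0.21 (SE, adjusted p = 8.9e-06, limma). RRP5, an RNA-binding protein that acts in both subunits, differed by 1.08 ± 0.19 (adjusted p = 1.82e-05, limma) and stood at -0.21, -0.52, -1.40 and -2.44 on the same arrays. BMS1 differed by 0.95 ± 0.16, SAS10 by 0.80 ± 0.17, MPP10 by 0.79 ± 0.17 and UTP10 by 0.75 ± 0.16.

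At the other end, DHR2, which also has the largest range, stood farthest below. It stood at -1.17, -2.78, -3.90 and -4.36 relative to its highest array at 53.41, 65.28, 77.14 and 89.01 degrees. Its first step differed from that of UTPA and UTPB by -0.69 ± 0.21 (adjusted p = 0.00362, limma). The steps of UTP5, FAL1, ENP1 and UTP9 differed by -0.53, -0.45, -0.37 and -0.32, and without the 5 dimmest arrays 3 members in place of 5 were lower. In the second step of the fall, 8 members were higher than UTPA and UTPB and 8 lower, against 95.5% and 0.664% of all probe sets. RRP7 was the farthest above, by 1.33 ± 0.22, and KRE33 the farthest below, by -0.85 ± 0.16. RRP5, BMS1, KRR1, SAS10, MPP10, RCL1, PWP2, FAL1, ENP1 and UTP9 were named after their values were seen.

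The windows compared here are unequal in batch, since 3 of the 4 arrays of the first window and none of the 3 of the second belong to the batch of 15. Within the batch of 16 the window at 53.41 to 77.14 degrees minus the array at 5.93 degrees was 0.24 for UTP20, -0.03 for RRP5 and -1.69 for DHR2, against -1.18 for the UTPA and UTPB mean. The sign of the difference from that mean was the same in this batch for 22 of the 22 members that were higher and 5 of the 5 that were lower. These arrays also entered the comparison that called those members, so agreement was favoured in advance. It is no independent check on the batch imbalance. As a description of timing with each gene scaled to its own height, the running mean of 3 arrays crossed the midpoint between its highest and lowest value at 58.4 degrees for RRP9 and 82.6 degrees for UTP20, the ends of the members' order, with a median of 68.2 degrees. By this measure RRP7 was early, at 59.6 degrees, although its first step was small, and DHR2 crossed at 63.9 degrees. RRP5 crossed at 80.2 degrees, the third latest.

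**Figure D5:**
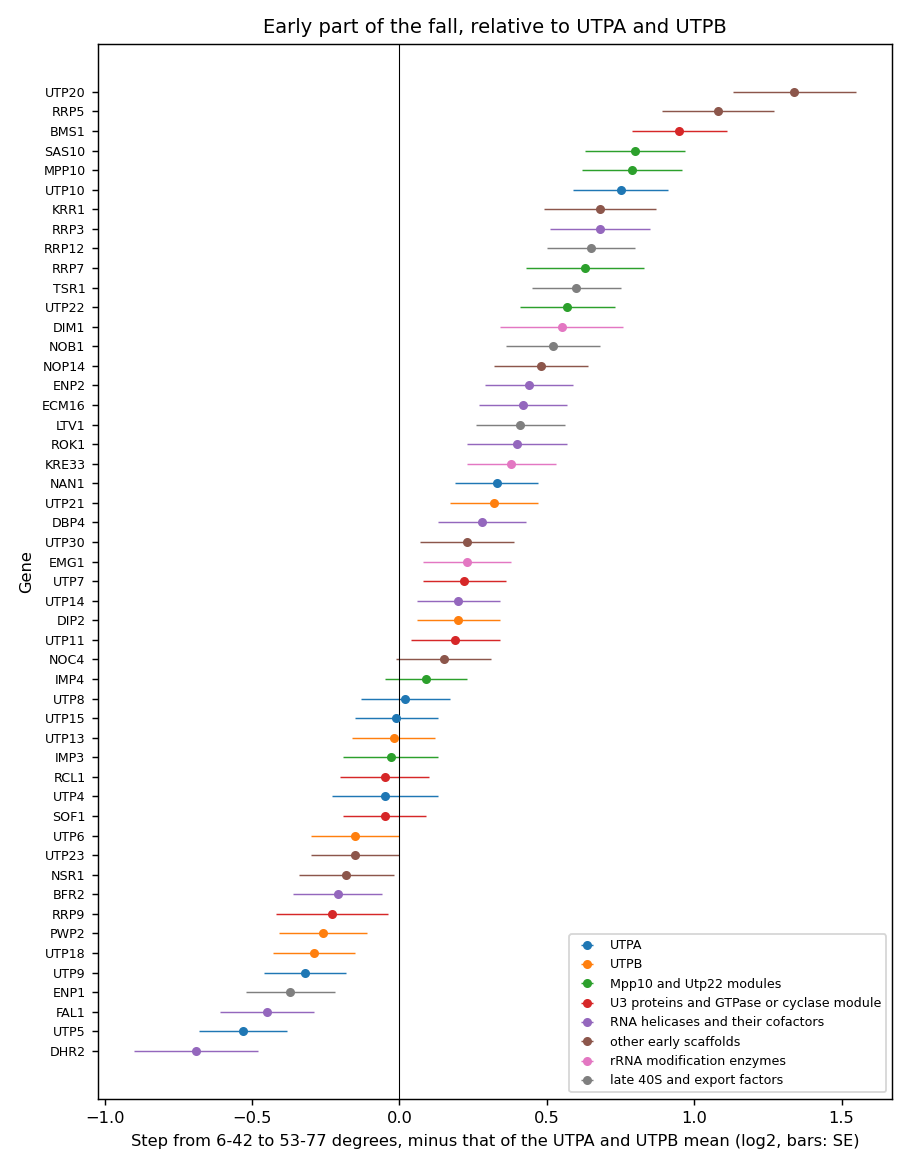
Step in log2 normalized intensity to 53-77 degrees from 6-42 degrees for each of the 50 members, minus the same step of the UTPA and UTPB mean, with bars of 1 SE and genes coloured by role. UTP20 at 1.34 is the farthest above 0 and DHR2 at -0.69 the farthest below.

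Other genes of the same pathway gave the setting. Of 32 further 40S assembly genes all 32 passed, 30 with ranges of 2-fold or more and 15 of 4-fold or more, and their median range was 1.96. PXR1, a protein that stimulates the helicase Prp43, had the largest, 3.30 ± 0.40, with normalized intensities of 173, 515 and 4630, and MRD1, an RNA-binding processome protein, the next, 3.25 ± 0.34, with 619 at the median and 4162 at the highest array. Of 8 core proteins of the small nucleolar ribonucleoproteins all 8 passed with a median range of 2.13. All 16 genes of RNA polymerase I and its factors passed, 11 by 2-fold or more, and their median range was 2.21. Not all of these moved with the members: 13 were lower at 124.62 to 172.09 than at 5.93 to 41.54 degrees and 2 were higher. Over all probe sets tested 39.2% were lower and 45.5% higher in that comparison. In the phase test 89.1% of all probe sets passed, 23.1% with 2-fold or more and 6.47% with 4-fold or more.

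The genes for 4 regulators of this regulon did not move alike. TOD6, a repressor that binds the PAC element found before many of these genes, was itself high with them: its normalized intensity was 243 at the lowest array, at 124.62 degrees, 571 at the median and 3716 at the highest, at 29.67 degrees, with a fitted range of 2.86 ± 0.32 (adjusted p = 2.82e-08, limma). DOT6, its paralog with the same binding element, had intensities of 2116, 2805 and 3410, lowest at 41.54 degrees, and a range of 0.23 ± 0.07 (adjusted p = 0.021, limma). That call was lost on the deposited scale, where the range was 0.04 (adjusted p = 0.965, limma), with serially correlated arrays (adjusted p = 0.306, limma) and without the 5 dimmest arrays (adjusted p = 0.169, limma). STB3, which binds the RRPE element, had intensities of 1888, 3426 and 4125, lowest at 29.67 degrees where most members were highest, and a range of 0.50 ± 0.12 (adjusted p = 0.000926, limma), which did not pass on the deposited scale (0.30, adjusted p = 0.265, limma) or within the batch of 16 (0.32, adjusted p = 0.0569, limma). SFP1, an activator of ribosome biogenesis genes, had intensities of 1193, 1386 and 1920 and a range of 0.36 ± 0.07 with a fitted peak at 63.6 degrees (adjusted p = 8.06e-05, limma), which did not pass with serially correlated arrays (0.33, adjusted p = 0.135, limma). On the deposited scale its fitted peak was at 10.9 degrees.

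The 5 genes outside the list whose profile over 31 arrays was most like the members' mean, by Pearson's r, were RRP8, PWP1, TRM82, MAK5 and RPF2, each at 0.998. MAK5 and RPF2 encode 60S assembly factors, RRP8 an rRNA methyltransferase and TRM82 a subunit of a tRNA methyltransferase. Their fitted ranges lay between 2.51 and 3.00 and their fitted peaks between 353.9 and 357 degrees.

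In the gene order of the RefSeq table for assembly R64 of the strain S288C, no member lay next to another member. Next to another assembly gene lay 4 members: RRP3 in divergent orientation to SSF1, UTP9 in tandem with RIX1, UTP13 in tandem with RSA3, and NOC4 convergent with RRP15. These 4 neighbours are genes of 60S assembly with fitted ranges of 3.26 ± 0.38 for SSF1, 3.48 ± 0.36 for RIX1, 1.61 ± 0.22 for RSA3 and 1.77 ± 0.23 for RRP15.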

How the data were processed

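Total RNA from 31 time points of 1 oscillating culture was measured on Affymetrix Yeast 2.0 arrays. The deposited values are probe set intensities on a linear scale, from 0.1 to 24501.6, made with GCOS per the submitters' processing notes. The sources used here do not give its version or scaling target. Precision is limited by the number of arrays.

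Array medians differed 2.03-fold, so log2 values of 5498 S. cerevisiae probe sets were quantile-normalized. A floor was set at percentile 95 of the median intensity of 1747 annotated probe sets that matched no S. cerevisiae gene of the RefSeq table; 76 probe sets did not exceed it, and 5422 for 5382 genes were tested. Tests used limma 3.58.1 in R 4.3.3: a moderated F-test of the cosine and sine of the labelled angle, and moderated contrasts of 7 windows of angle, with p-values adjusted by Benjamini and Hochberg's method across the 5422 probe sets and a threshold of 0.05. The F-test was also run on values minus the array mean of a gene list. SEs of ranges come from the delta method. The scripts were tested on simulated data of the same size.

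Members and lists were chosen with earlier results of these data known. Members named are those with the largest and smallest range in each role, the 5 largest and 5 smallest ranges over all, the 3 earliest and 3 latest fitted peaks, and any with a range under 2-fold. Other members with values of their own are marked in the text. Of 57 listed 40S ribosomal protein genes 53 were found on the array. Gene symbols came from the array annotation and a RefSeq table for assembly R64 of S288C, another strain. Promoter motifs, planned as a description, were not analysed here. Alternatives covered scaling, filters, batch, serial correlation, curve shape and left-out arrays. Plots were made in Python 3.11.15 (matplotlib 3.10.9).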

Additional observations from a re-analysis of the deposited data

How the results depend on the processing

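Alternatives for the comparison with UTPA and UTPB in single steps were added after the data were seen. All 50 members passed the phase test under every alternative run for that count, and no result past its threshold changed sign. All 50 were lower at 302.64 to 350.11 than at 5.93 to 41.54 degrees under every alternative run for this step. The same held at 124.62 to 172.09 degrees, leaving aside the run without the 5 dimmest arrays, where that window keeps 1 array. The members' median in the step to 124.62 to 172.09 degrees, where none passed, was 0.09 as reported, -0.24 on the deposited scale and -0.01 with spikes. The cause of the following shifts was not tested. Apart from the phase test, no share over all probe sets was computed under other settings. The median range of 2.54 was 3.00 on the deposited scale, 2.90 with a linear trend in time, 3.75 with 3 harmonics, and 1.97 and 3.32 within batches 1 and 2. Members with 4-fold ranges numbered 24 within batch 1, against 43 over all arrays, and 2108 in place of 1253 probe sets had 2-fold ranges with 3 harmonics. Members that differed from UTPA and UTPB were 11 and 10 within batches and 3 with serially correlated arrays (25 as reported), and from the 60S genes 15, 19 and 3 (29 as reported). Members that rose at 183.96 to 231.43 degrees (22 as reported) numbered 46 on the deposited scale, 37 with median centring, 49 with hybridization spikes, 13 with a batch term and 6 without the highest and lowest array of the members' mean. At 243.3 to 290.77 degrees 4 rose with hybridization spikes in place of 0. At 302.64 to 350.11 degrees (17 as reported) 0 rose on the deposited scale, with median centring, with spikes and without the 5 dimmest arrays, and 5 with a batch term, with a median difference of 0.76, 0.60 and 0.62 in the first 3 of these, against 0.66 as reported. In the first step of the fall 3 members in place of 5 were lower than UTPA and UTPB without the 5 dimmest arrays. Of 976 values of single members under other settings, 973 stayed on the same side of the threshold. The first step of DIM1 was lost on the deposited scale (-0.92, adjusted p = 0.0518, limma) and without the 5 dimmest arrays (-0.87, adjusted p = 0.0514, limma), and that of RRP3 on the deposited scale (-0.78, adjusted p = 0.0518, limma). Among 126 step differences of single members from UTPA and UTPB, 122 stayed, and the exceptions were those of NSR1 in the second step of the fall, from -0.36 to -0.34. The alternative with another probe set was not run, because no member has several. No paired analysis was possible because the arrays form 1 group with 1 array per angle and share no replicate numbers between groups. The lowest normalized intensity of any member on any array was 109.5. The floor of 17.04 comes from medians over arrays on the deposited scale, so it does not bound the background of single arrays.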
